A study of Mus musculus with 9 samples.

Results

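Kit ligand (Kitl) and its receptor (Kit) were measured by RNA sequencing of whole mouse ovaries that carried or lacked estrogen receptor β (ERβ, encoded by Esr2). The pair was chosen by name, as a ligand and its own receptor, and makes up 2 of the 46078 genes of the count table. Both were among the 16722 genes with enough reads to be tested. The 9 libraries, 1 per mouse, came from 5 wild-type (WT) and 4 ERβ knockout (ERβKO) females on a C57BL/6J background. In ERβKO mice exon 3 of Esr2 was deleted in every tissue, by crossing a floxed allele to a Rosa26-Cre deleter line and breeding the deleted allele on, and the WT controls were offspring without Cre. All 9 mice are labelled untreated. A protocol text that the labels share also describes a high-fat or a control diet and injections of the ERβ ligand DPN or of vehicle, and which of these, if any, applied to these mice is not given. The study used females of 4 to 20 weeks in its experiments, did not give the age of each library's donor, and did not stage the ovaries by estrous cycle.

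Kitl, also called stem cell factor, is made in the ovary mainly by granulosa cells, the somatic cells around the oocyte. It is made as a membrane protein, and proteases can release its outer part as a soluble factor. Kit is a receptor tyrosine kinase that oocytes and theca-interstitial cells carry, and it signals through PI3K, AKT and FOXO3 and through RAS and MAP kinases. In young follicles this signal is known for its part in waking primordial oocytes and in drawing theca cells to the growing follicle. ERβ is the main estrogen receptor of granulosa cells.

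Both genes are transcribed in forms that differ in a short coding stretch, and these stretches are shown because they set apart the proteins that a gene-level count adds together. In the GENCODE M21 annotation of GRCm38, Kitl (ENSMUSG00000019966) lies on the plus strand at chr10:100015630-100100416, and its form Kitl-202, with 819 coding bases in 10 exons, encodes 273 residues. The form Kitl-201 lacks exon 6, has 735 coding bases and encodes 245 residues. Exon 6 lies at chr10:100080857-100080940 on the plus strand and holds the protease site that favours shedding of the ligand. Kit (ENSMUSG00000005672) lies on the plus strand at chr5:75574916-75656722. Its form Kit-201, with 2937 coding bases, and its form Kit-204, with 2925, differ by 12 bases at the end of exon 9, at chr5:75639147-75639158 on the plus strand. The capitals below mark the bases that the shorter form lacks, and the lower case letters are the 12 bases of Kit exon 9 before them.
Kitl exon 6: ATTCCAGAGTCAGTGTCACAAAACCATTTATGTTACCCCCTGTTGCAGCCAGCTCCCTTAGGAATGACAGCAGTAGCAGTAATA
Kit end of exon 9: ttgcatttaaagGTAACAACAAAG
The counts were summed over each gene, with 6 annotated transcripts for Kitl and 8 for Kit, so the membrane-bound and the shed form of the ligand were not told apart. None of the 5911 exon bases of Kitl and none of the 8911 of Kit overlapped an exon of another annotated gene.

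The libraries held 12353740 to 16519975 counts in WT and 13088728 to 18717510 in ERβKO ovaries. Esr2 itself, counted over the whole gene, was at 16.7 ± 4.5 FPKM in WT and 16.1 ± 5.5 in ERβKO ovaries (SD, n = 5 against 4), and edgeR gave a log2 fold change of -0.02 (SE 0.24) with an adjusted p of 0.966. FPKM is the number of fragments scaled for transcript length and library depth. A gene-level count does not resolve exon 3, so this value does not check the deletion. On the first principal component, which held 35.9% of the variance, 4 WT libraries lay between -43.8 and -15.6 and the 4 ERβKO libraries between 19.4 and 35.3, while WT replicate 2 lay at 9.43. To be called changed, a gene needed an adjusted p below 0.05, a log2 fold change beyond 0.4 in either direction and a mean level of more than 1 FPKM in WT or in ERβKO ovaries. By this rule edgeR called 287 genes, 1.72% of those tested, with 153 (0.915%) higher and 134 (0.801%) lower in ERβKO ovaries. Without adjustment, 3315 genes (19.8% of those tested) had an edgeR p under 0.05, which is the share to hold beside the counts of unadjusted p in the lists below. DESeq2, the tool of the study, called 802 genes (4.8%) on the same counts.

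Kitl was upregulated in ERβKO ovaries. Its level in the 5 WT ovaries, in the order of their replicate numbers, was 10.1, 14.0, 18.1, 10.7 and 12.5 FPKM, and in the 4 ERβKO ovaries it was 18.1, 26.6, 26.8 and 21.8 FPKM. All 4 ERβKO ovaries stood above the WT mean, and the groups met at a single point, where WT replicate 3 and ERβKO replicate 1 had the same value to 3 digits. The mean rose from 13.1 ± 3.2 to 23.3 ± 4.2 FPKM (SD, n = 5 against 4), a 1.78-fold ratio. The edgeR log2 fold change was 0.79 (SE 0.17), with an unadjusted p of 0.00092 and a Benjamini-Hochberg adjusted p of 0.0475, just inside the threshold. The adjusted p from DESeq2 was 0.00144. A two-sided exact permutation test of the FPKM values over every split of the 9 ovaries gave p = 0.0317, where 0.0159 is the smallest value this design allows, and p = 0.132 after adjustment over the 5 values tested in this way.

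Between 870 and 3485 reads per library were counted for Kitl, so counting error was small beside the spread between ovaries. The coefficient of variation was 24.5% in WT and 17.9% in ERβKO ovaries. The call was lost in 9 of 18 alternative analyses, among them each of those without WT replicate 1, 4 or 5 or without ERβKO replicate 2, 3 or 4, where edgeR adjusted p lay between 0.0961 and 0.147. The direction was kept in all 18, with adjusted p from 0.00144 to 0.198.

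The receptor was also at a higher mean level in ERβKO ovaries, but did not pass the test. Kit was at 6.99, 12.9, 8.61, 6.93 and 4.94 FPKM in the 5 WT ovaries and at 9.55, 15.6, 15.2 and 12 FPKM in the 4 ERβKO ovaries. WT replicate 2 stood apart from the other WT ovaries and above 2 of the 4 ERβKO ovaries, so the groups overlapped. Every other WT ovary lay below every ERβKO ovary. The means were 8.08 ± 3.0 and 13.1 ± 2.9 FPKM (SD, n = 5 against 4). The edgeR log2 fold change was 0.71 (SE 0.24), with an unadjusted p of 0.0137 and an adjusted p of 0.144, and DESeq2 gave an adjusted p of 0.0601. The two-sided exact permutation test gave p = 0.0635, or 0.132 adjusted over the 5 values.

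Whether Kit was called turned on WT replicate 2, the ovary seen to overlap. Without WT replicate 2, the log2 fold change of Kit was 0.93 and its edgeR adjusted p was 0.0226. That fit called 912 genes, against 287 with all 9 libraries, so the gain in calls was not limited to Kit. The exact permutation p of Kit FPKM was then 0.0286, the smallest value that the remaining ovaries allow. With the overlapping ovary removed the groups were fully apart, so this p follows from the choice of ovary. Leaving out WT replicate 2 was the only 1 of 18 alternatives in which Kit was called. Without any other single library the log2 fold change was 0.58 or higher. Before adjustment, the permutation p of Kit was 0.0476 when the level was expressed as TPM (transcript shares scaled to a common total), as depth-scaled counts (CPM) or as log2 FPKM, each with all 9 libraries. Reads for Kit numbered 463 to 1983 per library.

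**Figure D1:**
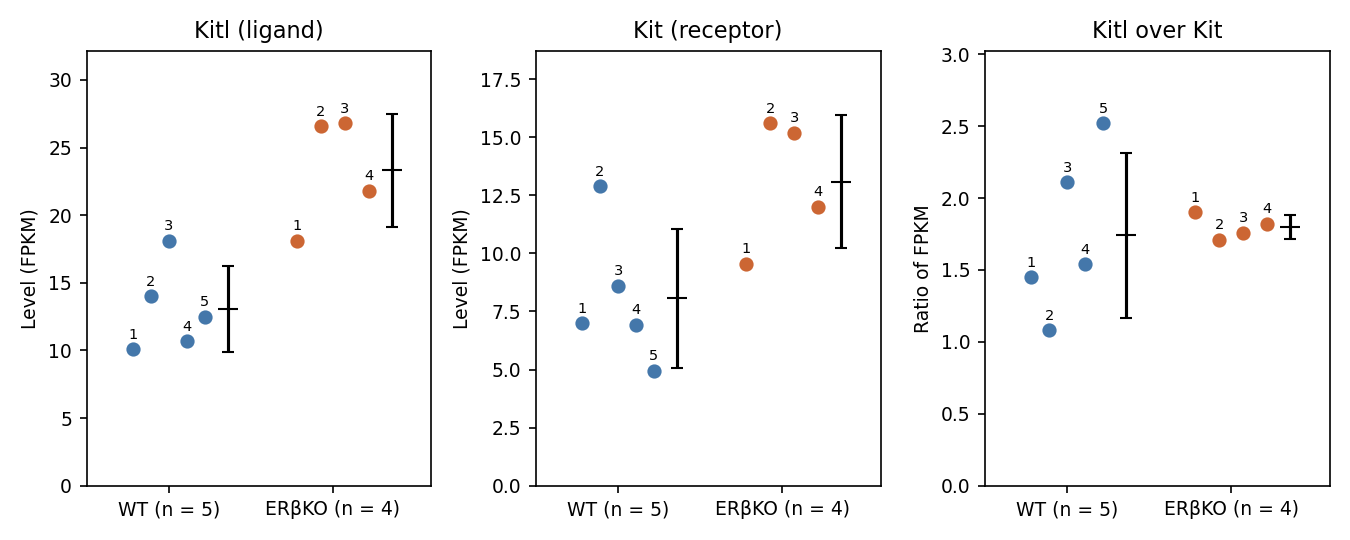
Level of Kitl and of Kit in FPKM, and the ratio of the 2 levels, in each ovary; points are single ovaries with their replicate number, and bars are mean ± SD. For Kitl the 4 ERβKO ovaries lie at 18.1 to 26.8 FPKM against 10.1 to 18.1 in WT, for Kit WT replicate 2 reaches 12.9 FPKM within the ERβKO range, and the ratio spreads more widely in WT.

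**Figure D2:**
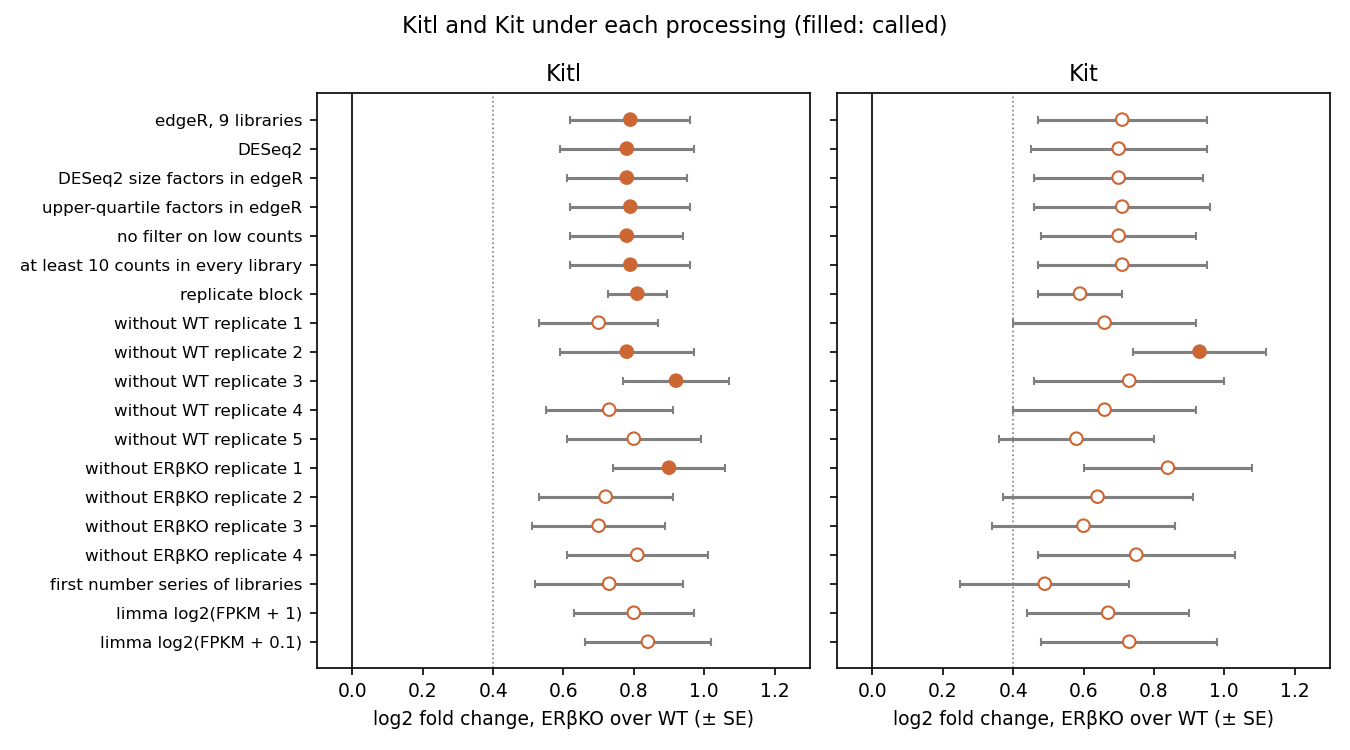
Log2 fold change of Kitl and of Kit, ERβKO over WT, under the analysis with all 9 libraries and under each alternative; bars are the standard error, filled points were called changed and the dotted line marks the threshold of 0.4. Kitl stays between 0.70 and 0.92 and is filled in the first analysis and in 9 of 18 alternatives, whereas Kit is filled only without WT replicate 2.

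Compared per length of transcript, the ligand was the more abundant of the pair in all 9 ovaries. The ratio of Kitl to Kit in FPKM was 1.45, 1.08, 2.11, 1.54 and 2.52 in WT ovaries and 1.9, 1.71, 1.76 and 1.82 in ERβKO ovaries. The ERβKO ratios all lay inside the WT range. The mean ratio was 1.74 ± 0.57 in WT and 1.79 ± 0.083 in ERβKO ovaries (SD, n = 5 against 4). Among the genes tested, 21.0 to 36.5% stood above Kitl in a WT library and 12.6 to 21.5% in an ERβKO library. For Kit these shares were 29.6 to 55.1% and 24.6 to 39.6%.

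The genes around Kitl and Kit on their chromosomes were looked at after the values of the pair were seen. Of the 2 nearest tested genes on each side of either member, 0 of 8 were called changed by edgeR or DESeq2, and 1, Kdr, had an unadjusted edgeR p under 0.05 (0.0205). Beside Kitl, Dusp6 had a log2 fold change of -0.15 and Tmtc3 of 0.05. Beside Kit lie 2 genes for related receptor kinases, and Pdgfra had a log2 fold change of -0.02 and Kdr of -0.23.

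In the bulk RNA of an ovary, a larger number of cells of a type and more RNA per cell cannot be told apart, so the level of each gene is given beside markers of the cells that carry it. Of 15 granulosa markers, 14 had a log2 fold change above 0 in ERβKO ovaries, and Fst, the activin-binding protein follistatin, was at -0.34. Their median was 0.49 against -0.00 over all genes tested. edgeR called 2 of 15 higher and 0 lower, beside 0.915% of all genes called higher. DESeq2 called 5 higher and 0 lower, where it called 374 of the 16722 genes tested higher. Inhbb, the βB subunit of inhibin and activin, was at 44.6, 40.0, 51.0, 41.3 and 54.1 FPKM in WT and at 112, 118.8, 99.4 and 71.6 FPKM in ERβKO ovaries, with no overlap. Its log2 fold change was 1.09 (edgeR adjusted p = 0.00883), and it was called in all 18 alternatives. Hsd17b1, which converts estrone to estradiol, had a log2 fold change of 0.77 (edgeR adjusted p = 0.0363) and was called in 9 of 18 alternatives. Fshr, the receptor for follicle-stimulating hormone, was at 8.83 ± 3.5 in WT and 18.7 ± 5.3 FPKM in the knockout (SD, n = 5 against 4) and was called by DESeq2 and not by edgeR.

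The summed level of the 15 granulosa markers was 753 to 870 FPKM in WT and 1010 to 1300 FPKM in ERβKO ovaries, without overlap, a ratio of means of 1.43 against 1.78 for Kitl. Inha, the inhibin α subunit, made up 38.5 to 47.2% of this sum. Expressed as a percentage of that sum, Kitl was at 1.31, 1.68, 2.1, 1.42 and 1.43% in WT ovaries and at 1.8, 2.05, 2.15 and 1.94% in ERβKO ovaries. WT replicate 3 lay among the ERβKO values and the other 4 WT ovaries below them. The means were 1.59 ± 0.31% and 1.98 ± 0.15% (SD, n = 5 against 4), and the two-sided exact permutation test gave p = 0.0794, or 0.132 adjusted over the 5 values. Without WT replicate 3, the ovary that overlapped, the difference grew from 0.395 to 0.522 percentage points. The exact permutation p was then 0.0286, the smallest value that 4 against 4 ovaries allow. Without any other single library, the exact permutation p lay between 0.107 and 0.179. This ratio cannot separate cell number, since the study names Inha, Inhbb, Hsd17b1, Fshr and Gata4 of this list as direct ERβ targets. The part of granulosa cell number in the Kitl difference was not tested.

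Kit was set beside both of the cell types that carry it. Oocyte markers had a median log2 fold change of 0.41, with 16 of 18 tested markers above 0 and 0 called by edgeR or by DESeq2. Among them, 0 of 18 had an unadjusted p under 0.05. Gdf9, a growth factor of the oocyte, had a log2 fold change of 0.46 and Zp2, a protein of the zona pellucida, of 0.44, with edgeR adjusted p of 0.383 and 0.424. The summed level of the 21 oocyte markers lay between 61.2 and 189 FPKM in WT and between 126.3 and 231 FPKM in ERβKO ovaries. As a percentage of this sum Kit was at 7.17 ± 3.0% in WT and 8.51 ± 3.9% in ERβKO ovaries (SD, n = 5 against 4), with 2 of 4 ERβKO ovaries above the WT mean (two-sided exact permutation p = 0.651 before and after adjustment). With single libraries left out, this difference of 1.34 percentage points ranged from 0.15 to 2.8.

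Theca markers had a median log2 fold change of 0.09, and edgeR called 1 of the 10 tested higher, beside 0.915% of all genes called higher. Aldh1a1, an enzyme of retinoic acid synthesis, was at 620, 580, 538, 441 and 424 FPKM in WT and at 761, 1101, 1229 and 1276 FPKM in ERβKO ovaries, without overlap (log2 fold change 1.05, edgeR adjusted p = 0.0139). It made up most of the summed theca level, which was 656 to 857 FPKM in WT and 903 to 1960 FPKM in ERβKO ovaries. Relative to that sum Kit was at 1.06 ± 0.36% in WT and 0.888 ± 0.14% in ERβKO ovaries (SD, n = 5 against 4, two-sided exact permutation p = 0.429, adjusted 0.536), and 0 of 4 ERβKO ovaries lay above the WT mean. This difference of -0.174 percentage points ranged from -0.275 to -0.0584 with single libraries left out.

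Cyp17a1, the enzyme of androgen synthesis in theca cells, varied widely between ovaries and was not called (log2 fold change 2.35, edgeR adjusted p = 0.205). It was at 59.2, 128, 1.82, 29.4 and 23.8 FPKM in WT and at 50, 390, 472 and 70.9 FPKM in ERβKO ovaries. Its highest WT ovary was replicate 2 and its highest ERβKO ovaries were replicates 2 and 3, which were also the highest for Kit in either genotype. Whether the share of theca cells moved with Kit in these ovaries was not tested.

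**Figure D3:**
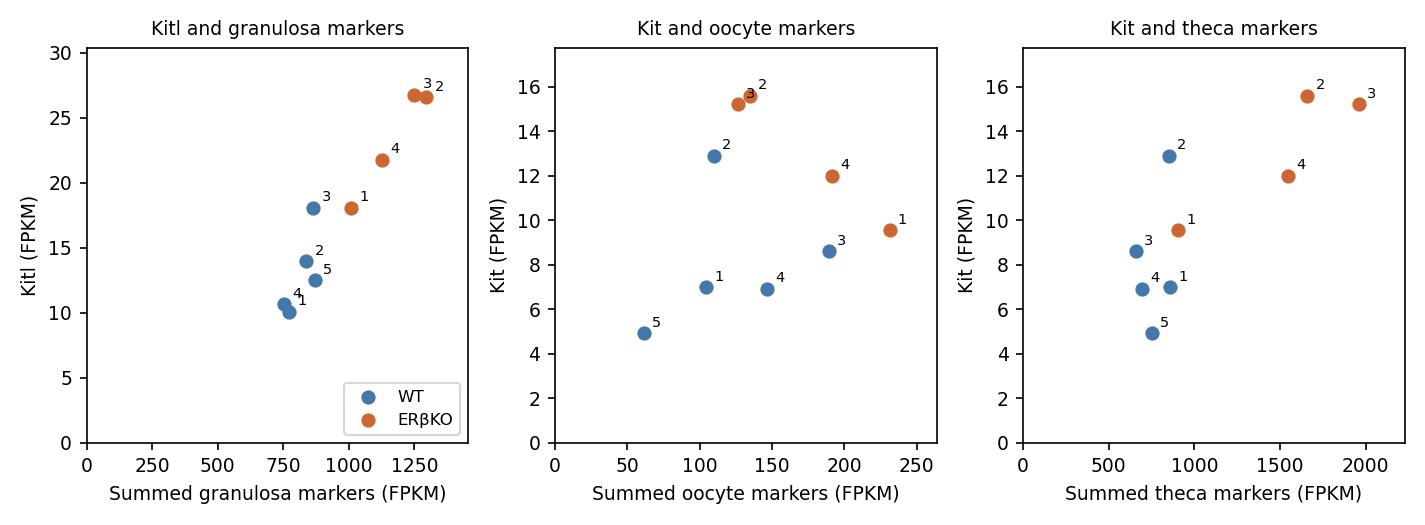
Level of Kitl against the summed level of 15 granulosa markers, and of Kit against the summed levels of 21 oocyte and 11 theca markers, all in FPKM, with 1 point for each ovary and its replicate number. The ERβKO ovaries lie to the right of every WT ovary for granulosa (1010 to 1300 against 753 to 870 FPKM) and theca markers, and overlap with WT for oocyte markers.

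Mast cells and melanocytes also carry Kit outside the ovary's follicles. Of 11 mast cell markers 6 were tested and 0 were called by edgeR or DESeq2, with 1 of 6 at an unadjusted p under 0.05, and 4 of these 6 had a log2 fold change above 0, with a median of 0.26. The summed level of the 11 markers was 52.6 to 122 FPKM in WT and 71.9 to 86.5 FPKM in ERβKO ovaries. Most of that sum was Hdc, the histamine-forming enzyme, and the defining markers Fcer1a, Ms4a2 and Mrgprb2 had under 10 counts in every library. Tpsb2, a mast cell tryptase, was at 2.39 ± 0.87 in WT and 3.68 ± 0.69 FPKM in the knockout (SD, n = 5 against 4) and was not called (edgeR adjusted p = 0.216). The 7 melanocyte markers summed to 0.348 to 0.96 FPKM, and 6 of them had under 10 counts in every library. The 10 luteal markers had a median log2 fold change of -0.89, with 9 below 0. Of them, edgeR called 0 and DESeq2 called 3 lower, where DESeq2 called 428 of the 16722 genes tested lower. Of these 10, 5 had an unadjusted p under 0.05, beside 19.8% of all genes tested, and their sum was 3070 to 6590 FPKM in WT and 2500 to 3890 FPKM in ERβKO ovaries. The 10 endothelial markers had a median log2 fold change of -0.10, with 0 called by edgeR, 1 called higher by DESeq2 and 2 at an unadjusted p under 0.05.

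The rest of the pathway was called at about the same rate as other genes. Of 92 genes in 5 lists, from the proteases that shed the ligand to the kinases below the receptor, all 92 were tested, 47 had a log2 fold change above 0 and 45 below, and the median was 0.01. edgeR called 1 higher and 1 lower, which is 2 of 92 beside 1.72% of all genes tested. The lists were written from general knowledge of the pathway with earlier results of these data known, and are described by their counts alone.

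Among 9 proteases and cofactors that can release soluble Kitl, 0 were called by edgeR or DESeq2 and 0 had an unadjusted p under 0.05. Adam10 was at 32.8 ± 4.5 and 33.0 ± 0.76 FPKM, Mmp2 at 24.9 ± 6.5 and 22.7 ± 4.5 FPKM and Adam9 at 18.5 ± 1.2 and 17.8 ± 1.2 FPKM in WT and ERβKO ovaries (SD, n = 5 against 4). Their log2 fold changes were -0.02, -0.16 and -0.08. The 9 values in this list ran from -0.24 for Rhbdf2 to 0.24 for Cma1, a mast cell chymase.

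Among 32 adaptors and kinases that bind or act next to the activated receptor, edgeR called 0 and DESeq2 called 1. Over all genes tested, edgeR called 1.72% and DESeq2 4.8%. Of the 32, 4 had an unadjusted p under 0.05 in edgeR, a smaller share than the 19.8% of all genes tested. DESeq2 called Pik3cd, the δ catalytic subunit of PI3K, lower, with an adjusted p of 0.0352, the only 1 of 18 alternatives that called it. Its log2 fold change in edgeR was -0.45, the lowest of the list, and its adjusted p was 0.111. Gab2, a docking protein for PI3K, was at the other end with 0.46 and an edgeR adjusted p of 0.166. The most abundant members had smaller values, at -0.08 for Stat3, -0.06 for Shc1 and 0.08 for Pik3r1, the regulatory subunit that docks on Kit.

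Of 17 brakes on the receptor, edgeR called 1 higher and 0 lower, beside 0.915% of all genes called higher. Sh3kbp1, also named CIN85, is an adaptor that works with the ubiquitin ligase Cbl in taking up activated receptors. It was at 12.9, 12.2, 13.6, 12.4 and 10.1 FPKM in WT and at 15.9, 16.5, 15.9 and 14.2 FPKM in ERβKO ovaries, without overlap. Its log2 fold change of 0.42 (SE 0.085) was close to the threshold of 0.4 and its edgeR adjusted p was 0.0378, and it was called in 6 of 18 alternatives. Spred1 and Dusp6, which restrain MAP kinase signalling, had log2 fold changes of -0.07 and -0.15 and were not called.

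In the PI3K and FOXO3 branch, edgeR called 1 of 18 genes lower, beside 0.801% of all genes called lower. Its change was the largest of the 92. Cdkn1b encodes p27, an inhibitor of cyclin-dependent kinases whose transcription FOXO factors can raise. It was at 98.9, 46.7, 63.9, 78.2 and 119.2 FPKM in WT and at 35.2, 23.9, 20.6 and 29.3 FPKM in ERβKO ovaries. Every ERβKO ovary lay below every WT ovary, and the lowest WT ovary was again replicate 2. The mean fell from 81.4 ± 29 to 27.3 ± 6.4 FPKM (SD, n = 5 against 4), with an edgeR log2 fold change of -1.56 (SE 0.24) and an adjusted p of 0.0139. The call held in 15 of 18 alternatives. The sum of the luteal markers was lower in the same direction, and its part in the Cdkn1b difference was not tested. Foxo3 had a log2 fold change of 0.09, Foxo1 of 0.25 and Akt1 of 0.02, and none of these 3 was called by edgeR.

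In the RAS and MAP kinase branch 0 of 16 genes were called by edgeR or DESeq2, and 4 had an unadjusted p under 0.05, beside 19.8% of all genes tested. Rps6ka2, a ribosomal S6 kinase, had the lowest log2 fold change of this branch at -0.69 and ranged from 9.33 to 28.3 FPKM in WT against 10.6 to 11.5 FPKM in ERβKO ovaries. The kinase Mapk3 had a log2 fold change of -0.13. Among 11 relatives of Kit and their ligands, edgeR called 1 lower, beside 0.801% of all genes called lower. Pdgfrb, a receptor for platelet-derived growth factor, was at 13.4 ± 2.6 in WT and 9.03 ± 1.3 FPKM in the knockout (SD, n = 5 against 4), with a log2 fold change of -0.59 and an edgeR adjusted p of 0.0487, and was called in 7 of 18 alternatives. Csf1, the ligand of the related receptor Csf1r, had a log2 fold change of 0.48 and was not called.

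**Figure D4:**
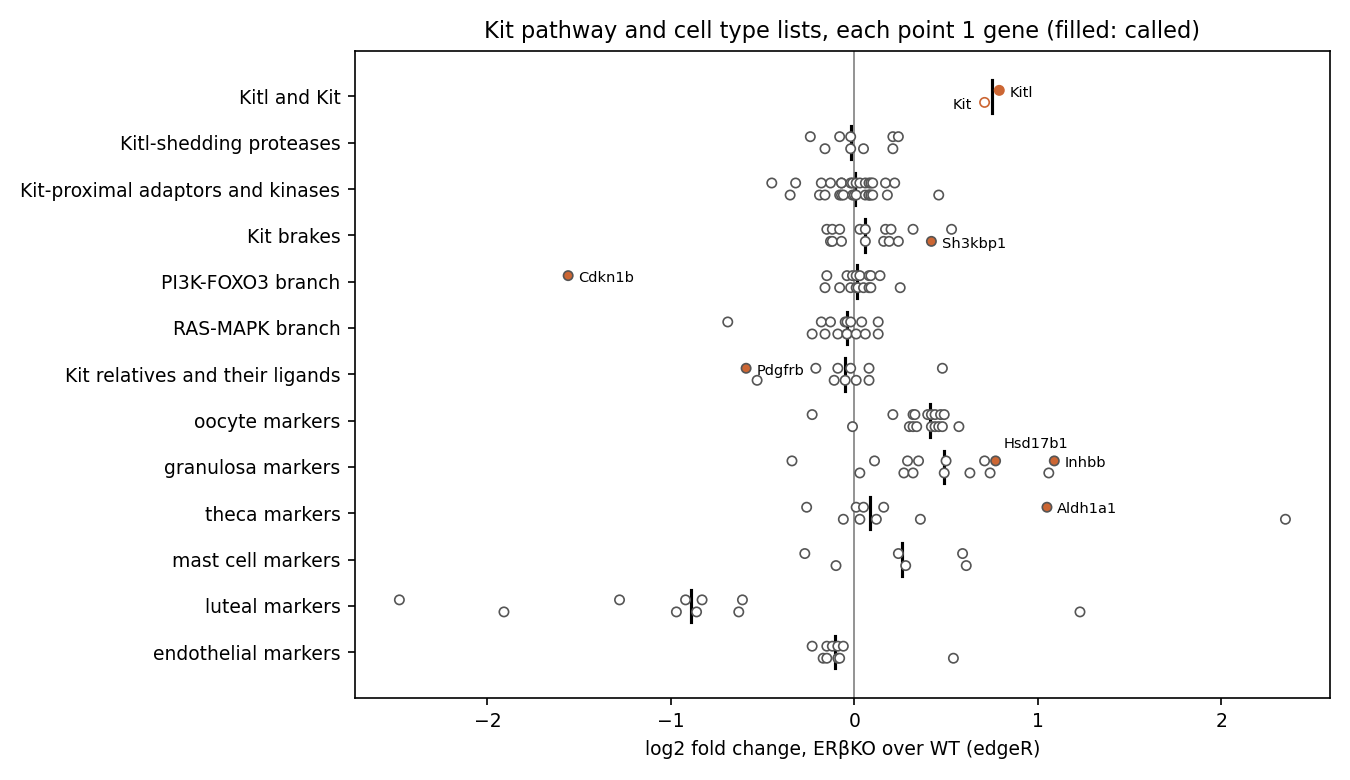
Log2 fold change, ERβKO over WT, for Kitl and Kit, for 5 pathway lists, for relatives of Kit and for 6 lists of cell type markers; each point is 1 tested gene, filled points were called by edgeR, and black bars are medians. The pathway medians lie between -0.04 and 0.06, with Cdkn1b at -1.56 apart from the rest, while the granulosa and oocyte medians are at 0.49 and 0.41 and the luteal median at -0.89.

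The genes whose level followed each member most closely over the 9 libraries were named as a description. Pearson's r was taken on log2 CPM over 14177 tested genes with a mean over 1 FPKM, and since the libraries share genotype and depth it carries no test. For Kitl these were Maged1 (r = 0.96), Athl1 (0.957), Reps2 (0.936), Ralb (0.932) and Lrrc42 (0.931). Of these 5, Ralb, a RAS-like GTPase, was called, with a log2 fold change of 0.51 and an edgeR adjusted p of 0.0486, and it was called in 7 of 18 alternatives. Maged1 went from 133 ± 2.7 to 143 ± 3.8 FPKM (SD, n = 5 against 4).

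Kit was followed most closely by B3gnt8 (r = 0.971), Nfkbia (0.966), Il6st (0.964), Olfm2 (0.96) and Rab37 (0.959), and 0 of these 5 were called by edgeR or DESeq2, with 1, Nfkbia, at an unadjusted edgeR p under 0.05 (0.0442). Rab37, a RAB GTPase, was at 0.396, 13.0, 2.97, 1.08 and 0.214 FPKM in WT and at 2.83, 9.52, 12.5 and 12 FPKM in ERβKO ovaries. As for Kit, WT replicate 2 was the highest WT ovary. For Rab37 it lay above every ERβKO ovary, whereas for Kit it lay within the ERβKO range. In the order of likeness to Kitl, Kit itself was in place 370 with r = 0.766, and in the order of likeness to Kit, Kitl was in place 798.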

How the data were processed

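Total RNA from whole ovaries was made into stranded poly(A) libraries and sequenced as paired reads. Per the labels, the authors aligned reads with STAR to GRCm38 and deposited raw gene counts from featureCounts and FPKM, TPM and mean coverage from StringTie (coverage was not used); bcl2fastq was version 2.20.0.422, and other versions and the strand setting are not given in the sources used here. Rows of 17 gene IDs listed more than once in a StringTie table were summed. Counts were tested with edgeR 4.0.16 (R 4.3.3; TMM, filterByExpr, quasi-likelihood) over all 16722 tested genes, with Benjamini-Hochberg adjustment. Single values were compared with exact permutation tests (SciPy 1.17.1). Scripts were tested on simulated counts. Alternatives were DESeq2 1.42.0, other size factors and filters, limma 3.58.1 on log2(FPKM + 1) and log2(FPKM + 0.1), a replicate block, each library left out, and the first 3 WT libraries with the ERβKO libraries, since the names of WT replicates 4 and 5 carry another number series. The 2 members and the lists were chosen with earlier results of these data known. Named genes were the members, Esr2, the called and the 3 most abundant genes of each list (some are not reported here), and the 5 genes most like each member; a few list members outside this rule, Fshr, Fst, Gab2, Pik3cd, Csf1, Rps6ka2, Foxo1, Foxo3, Rhbdf2, Cma1, Fcer1a, Ms4a2 and Mrgprb2, and the neighbours Tmtc3 and Kdr, were named after their values were seen.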

Additional observations from a re-analysis of the deposited data

Results flagged for a closer look

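In 11 groups of FPKM values (9.65% of those examined, each a named gene in 1 genotype), a single ovary stood apart from the others by more than Dixon's 95% limit, which chance alone passes in about 5% of groups. Both genes most like Kit that were picked out this way were high in WT replicate 2, Olfm2 at 6.96 FPKM and Rab37 at 13.0 FPKM. They had been chosen for following Kit over these same libraries, so a high value in the WT ovary highest for Kit follows from that choice. Kit itself in that ovary, at 12.9 FPKM, did not pass the limit. Among pathway genes, Adam10 was high in WT replicate 3 at 40.7 FPKM, Shc1 high in ERβKO replicate 3 at 30.2 FPKM and Mapk3 low in ERβKO replicate 1 at 77.4 FPKM. The related receptor Pdgfrb was high in WT replicate 1 at 17.9 FPKM. Among cell type markers, Inha was high in WT replicate 5 at 399 FPKM and Cyp11a1 high in ERβKO replicate 3 at 1090 FPKM. The melanocyte markers picked out lay near 0, with Mlana at 0.426 FPKM in ERβKO replicate 1 and Dct at 0.0843 FPKM in WT replicate 5 and 0.0727 FPKM in ERβKO replicate 2.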

How the results depend on the processing

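The direction of Kitl and of Kit was kept in all 18 alternatives of the fit. DESeq2 called 802 genes (374 higher, 428 lower). Leaving out each library in turn gave 60 to 912 called genes (42 to 488 higher, 18 to 424 lower), 0 to 2 called pathway genes, log2 fold changes of 0.70 to 0.92 for Kitl and 0.58 to 0.93 for Kit, FPKM differences of 9.08 to 12 for Kitl and 4.18 to 6.23 for Kit, and 0.326 to 0.522 percentage points for Kitl per granulosa markers. The count of called genes was highest without WT replicate 2 (912), and was over 1.5 times lower than with all libraries without ERβKO replicate 2 (60), and without WT replicate 1 (118), 4 (161) or 5 (110) or ERβKO replicate 3 (152) or 4 (80). Without WT replicates 4 and 5, 51 genes (30 higher, 21 lower) and 0 pathway genes were called, and Kitl had a log2 fold change of 0.73 (adjusted p = 0.198) and an FPKM difference of 9.23. With limma, Kitl was at 0.80 (log2(FPKM + 1), with 84 genes called lower) and 0.84 (log2(FPKM + 0.1)), adjusted p = 0.0515 and 0.0514, and each called 1 pathway gene. The Kit difference had an exact permutation p of 0.0476, before adjustment, as TPM (3.55), CPM (35.4) and log2 values (0.734). For Kitl FPKM, the exact permutation p rose above 0.05 in 8 alternatives and stayed below it in 5. It reached 0.0714 with a single library left out and was 0.114 without WT replicates 4 and 5.

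Libraries with the same replicate number did not deviate together in every pair (correlations 0.0948, 0.13, -0.0427 and -0.0105), so the numbers were not used as pairs. With a replicate block 155 genes (66 higher, 89 lower) and 1 pathway gene were called.

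The sign turned for some named genes that were not called. These were Adam10 (limma 0.019 and 0.02), Araf (limma 0.027 and 0.028, and 0.043 without WT replicates 4 and 5), Pdgfra (limma 0.034 and 0.037), Emcn (limma 0.008 and 0.0084), and, with the block and without WT replicates 4 and 5, Pik3r1 (-0.044 and -0.078), Rps6 (-0.0013 and -0.019) and Gata2 (0.093 and 0.23). Without WT replicates 4 and 5 the signs of Akt1 (-0.035), Hdc (0.048), Pecam1 (0.0026) and Lhcgr (0.48) turned as well. With single libraries left out, the ranges crossed 0 for Adam10 (-0.049 to 0.063), Pik3r1 (-0.062 to 0.22), Rps6 (-0.006 to 0.029), Akt1 (-0.012 to 0.076), Pdgfra (-0.12 to 0.14), Lhcgr (-0.73 to 0.15), Gata2 (-0.28 to 0.011) and Pmel (-0.032 to 0.25). The cause was not tested. Of the 5 genes most like each member, Spearman's rho kept 1 for Kitl and 2 for Kit, and deviations from the group means kept 0 for either.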
